A study of Mus musculus with 3 samples.

Results

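The regions described here are the H3K27me3 peaks of mouse small intestinal crypts that stand alone. They were chosen by the positions of the deposited H3K27me3 peaks: a peak on chromosomes 1 to 19 with no other peak of the same list within 5000 bp of either edge. This gave 3428 isolated peaks of the 25897 autosomal H3K27me3 peaks (13.2%, 95% exact binomial interval 12.8 to 13.7), out of 25955 on the whole list. The other 22469 autosomal peaks belong to multi-peak domains, runs of at least 2 peaks joined across gaps of at most 5000 bp. Counted as domains, isolated peaks made up 44.96% of the 7624 autosomal units, but they held 8.72% of the autosomal sequence under H3K27me3 peaks.

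All 3 libraries of the series were made from crypts of C57BL/6 mice of the genotype Lgr5Gfp-CreERT2, an allele that places a fluorescent protein and an inducible Cre under the control of Lgr5, a gene of crypt stem cells. One library was precipitated with an antibody against H3K27me3, 1 with an antibody against Suz12, and 1 was an input without antibody, whose data are not analysed here. Age, induction of the Cre, the number of mice and any pooling are not given in the labels used here. Crypts hold several epithelial cell types, and peak lists of this kind cannot show the cell makeup of the sample, so the tissue was not checked against marker genes. With 1 library for each antibody no value here has a replicate error, and no test was made.

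Polycomb repressive complex 2 (PRC2) places the trimethyl mark on lysine 27 of histone H3, and Suz12 is a core subunit that the enzyme needs. Another subunit, Eed, binds the finished mark and stimulates the enzyme, which lets the mark spread from a site of recruitment over neighbouring nucleosomes. H3K27me3 often covers long stretches around silent developmental genes, where its signal is called as many adjoining peaks. The isolated peaks are the entries of the list outside such runs.

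Isolated peaks were short and had low values. The peak value is the score the authors deposited with each peak. Its meaning is not given, and it ranks peaks within 1 list only. Among isolated peaks the lowest value was 8, the median 9.68 and the highest 32.2, with quartiles at 8.86 and 11.3. Most of them therefore lay just above 8, the minimum of the list. Values under 10 were found in 1786 isolated peaks (52.1%), and values of at least 20 in 61 (1.78%). Widths ran from 200 bp to 5027 bp around a median of 279 bp, with quartiles of 227 and 388 bp. A width of exactly 200 bp, the narrowest in the list, was found in 246 isolated peaks (7.18%), and 133 (3.88%) were at least 1000 bp wide. Value and width went together only in part, with a Spearman rho of 0.40 across the 3428 peaks, which all share 1 library.

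The peaks at the edges of multi-peak domains were the nearest kind to compare. Each such outermost peak has an empty flank of over 5000 bp on 1 side and a neighbour on the other. The 8392 outermost peaks had a median value of 10.5 and a median width of 340 bp, and the 14077 inner peaks had medians of 12.1 and 455 bp. Isolated peaks thus came lowest in both measures, inner peaks highest, and outermost peaks between them. Peaks of 2-peak domains, the smallest multi-peak units, are all outermost and are counted among the 8392. These 2728 peaks had medians of 10.45 and 327 bp, close to those of outermost peaks as a whole. Values, widths and the rule come from the same list, so these differences are a description. The median value of isolated peaks was 1.59 lower than that of all multi-peak members (9.68 against 11.27) and 0.78 lower than that of outermost peaks. Part of this went with width: among peaks of 200 to 300 bp the medians of isolated and multi-peak members differed by 0.19, and among those of at least 1000 bp by 2.39, each time with the isolated peaks lower.

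**Figure D1:**
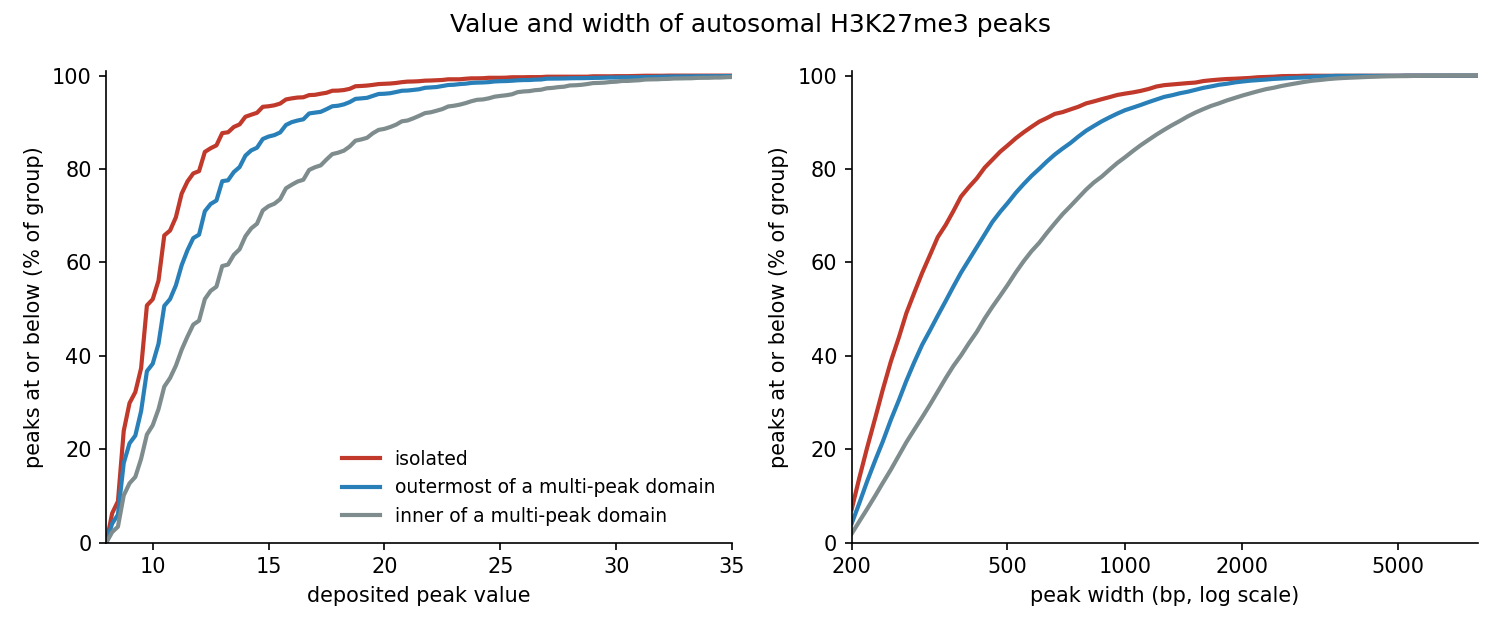
Share of peaks at or below each deposited peak value (left) and each width in bp on a log axis (right), for 3428 isolated peaks, 8392 outermost and 14077 inner peaks of multi-peak domains on chromosomes 1 to 19. The curve of isolated peaks lies above and to the left of both others, with medians of 9.68 and 279 bp.

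The share of peaks that stood alone was smaller in each class of higher value. It was 20.9% of the 8536 autosomal peaks with a value of 8 to 10, 14.7% from 10 to 12, 8.03% from 12 to 16, 4.64% from 16 to 20 and 3.04% of the 2007 peaks of at least 20. By width, 21.4% of the 9091 peaks under 300 bp were isolated, against 4.12% of the 3228 peaks of at least 1000 bp. A strong or wide peak without neighbours was thus uncommon in this library but not absent. Of the 2204 autosomal peaks with both a value of at least 16 and a width of at least 1000 bp, 70 were isolated.

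The 10 isolated peaks with the highest values, all from 26.8 to 32.2, lay on 7 chromosomes. Positions are given in mm9, counted from 1, without genes, because no annotation of that build was used here. The highest value belonged to chr18:67623936-67625214, 1279 bp wide, with 71.5 kb to the nearest other H3K27me3 peak. The second was chr2:139502485-139505006, with a value of 31.2 and a width of 2522 bp. It was also among the 5 widest isolated peaks, and the nearest other H3K27me3 peak lay 1.90 Mb away. The third, chr1:9956521-9957596, had a value of 31.0 and is the only one of the 10 that overlapped a Suz12 peak.

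Others of the 10 stood much closer to other peaks. The peak at chr11:97846430-97847979 (value 30.7, 1550 bp) was 6.37 kb from a multi-peak domain, not far beyond the 5000 bp limit. The peak at chr15:78744417-78745782 (value 28.9, 1366 bp) was 30.4 kb from one. The peak at chr1:178743297-178743764 reached 26.8 in only 468 bp, and it was the only one of the 10 narrower than 1000 bp. Distances to the nearest other peak ranged from 78.7 to 581 kb for the remaining 4, at chr2:178147572-178148777 (value 30.0), chr9:40771650-40772812 (29.0), chr8:48372594-48374828 (28.9) and chr9:97932049-97934381 (26.8). Among these 10, the gap to the nearest peak therefore spanned from 6.37 kb to 1.90 Mb.

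Width singled out other members. The widest isolated peak, chr18:35810140-35815166, measured 5027 bp with a value of 22.1 and carried 2 Suz12 peaks. The next was chr12:82432882-82435695, with 2814 bp and a value of 19.3. It was followed by chr2:91814706-91817484 with 2779 bp and a value of 23.3. The fifth, chr5:31596031-31598541, was 2511 bp wide but had a value of only 11.2, so a wide isolated peak was not always a strong one. None of these last 3 overlapped a Suz12 peak.

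Suz12 was called on very few isolated peaks. Of the 3428, 7 shared at least 1 bp with a Suz12 peak, which is 0.204% (95% exact interval 0.0821 to 0.420), against 4.71% of all autosomal H3K27me3 peaks. The share was 0.440% (0.227 to 0.767) for peaks of 2-peak domains, 0.858% (0.672 to 1.08) for outermost peaks and 8.11% (7.67 to 8.58) for inner peaks. The intervals allow for counting error alone and take every peak as independent of its neighbours. Suz12 calls were not used to choose the isolated peaks, but there is no replicate of either library with which to test the difference.

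Low value and small width moved with the low share. No Suz12 peak overlapped any of the 1786 isolated peaks with values of 8 to 10 (interval up to 0.206%) or any of the 1946 isolated peaks under 300 bp (up to 0.189%). In the same classes, 0.156% and 0.144% of outermost peaks overlapped Suz12. Of the 61 isolated peaks with a value of at least 20, 4 did (6.56%, interval 1.82 to 15.9), beside 11.9% (8.62 to 15.9) of outermost and 37.1% (34.7 to 39.5) of inner peaks in that class. With both a value of at least 16 and a width of at least 1000 bp, 5 of 70 isolated peaks carried Suz12 (7.14%, 2.36 to 15.9). So did 11.6% (8.63 to 15.2) of outermost and 35.6% (33.4 to 37.9) of inner peaks. Peaks of 2-peak domains had nearly the same share as isolated peaks in this class, 9 of 130 (6.92%, 3.21 to 12.7). At matched classes the intervals of isolated and outermost peaks overlapped, while inner peaks lay above both. How far value and width account for the low share over all isolated peaks was not tested.

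Seen by domain, Suz12 was more frequent the more H3K27me3 peaks stood together. It was present at 7 of 3428 units of 1 peak, 12 of 1364 domains of 2 peaks (0.880%), 72 of 1708 of 3 to 5 peaks (4.22%), 139 of 689 of 6 to 10 peaks (20.2%) and 229 of 435 of 11 or more (52.6%). A domain of many peaks also offers more sequence for an overlap.

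**Figure D2:**
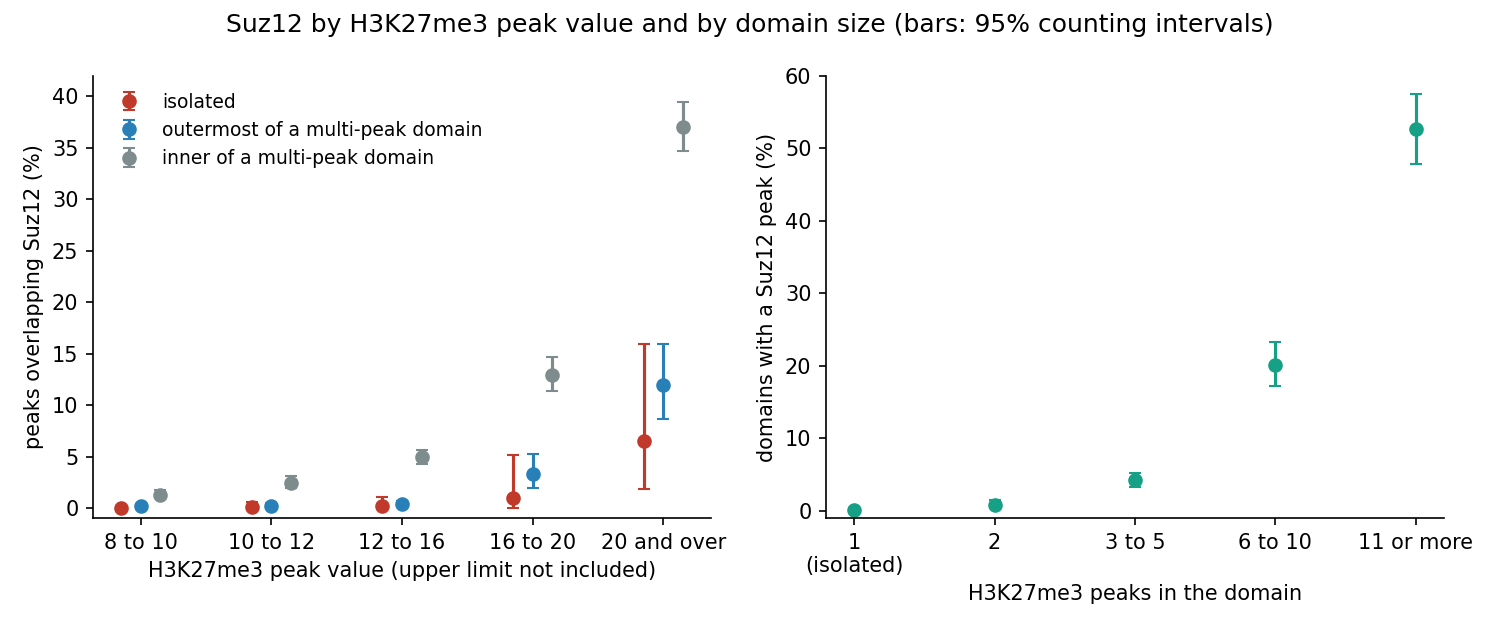
Left: percent of H3K27me3 peaks that overlap a Suz12 peak, by class of H3K27me3 peak value, for isolated, outermost and inner peaks. Right: percent of units with a Suz12 peak by the number of H3K27me3 peaks in them, from 0.204% at 1 peak to 52.6% at 11 or more. Bars are 95% exact binomial intervals, which cover counting error only, and the isolated points have wide bars at high values because only 61 peaks reach 20.

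The 7 isolated peaks with Suz12 carried 8 Suz12 peaks between them, 0.546% of the 1464 autosomal Suz12 peaks. Most of these Suz12 peaks were weak in their own list, where the median value was 11.7: 6 isolated peaks had a single Suz12 peak, 5 of these with values from 8.05 to 9.99. The chromosome 18 peak at 35810140-35815166 was the exception in extent. Its Suz12 peaks, 526 and 2268 bp wide with Suz12 values of 17.0 and 20.9, together lay under 55.6% of its length. On chromosome 14, the peak at 55194256-55196294 (H3K27me3 value 25.1, 2039 bp) had 1 Suz12 peak of 1376 bp and value 15.5 over 67.5% of its length. These were the 2 isolated peaks where Suz12 took up the greater part of the marked stretch.

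In the others Suz12 filled a small part. The peak at chr6:42272843-42275258 (H3K27me3 value 22.6, 2416 bp) held a 430 bp Suz12 peak of value 9.76. On chromosome 11, 102466359-102467897 (value 15.7, 1539 bp) held one of 213 bp and value 8.05, close to the minimum of the Suz12 list. At chr1:9956521-9957596, the third strongest isolated H3K27me3 peak, the 200 bp Suz12 peak (value 9.76) extended past the left edge and only 70 bp were shared. It was the only one of the 8 Suz12 peaks not wholly inside the H3K27me3 peak.

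The 2 on chromosome 4 differed in setting. The peak at 28741997-28742865 (value 10.1, 869 bp) held a 250 bp Suz12 peak of value 9.99 and lay 3.28 Mb from any other H3K27me3 peak, which also put it among the 5 most remote. The peak at 155628448-155630143 (value 17.5, 1696 bp), with a Suz12 peak of 214 bp and value 8.31, was the last on its chromosome and ran 23 bp past the mm9 chromosome end. A coordinate past the end has no sequence in the build, so that edge is uncertain. In width, 6 of the 7 measured at least 1000 bp, against 3.88% of all isolated peaks.

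**Figure D3:**
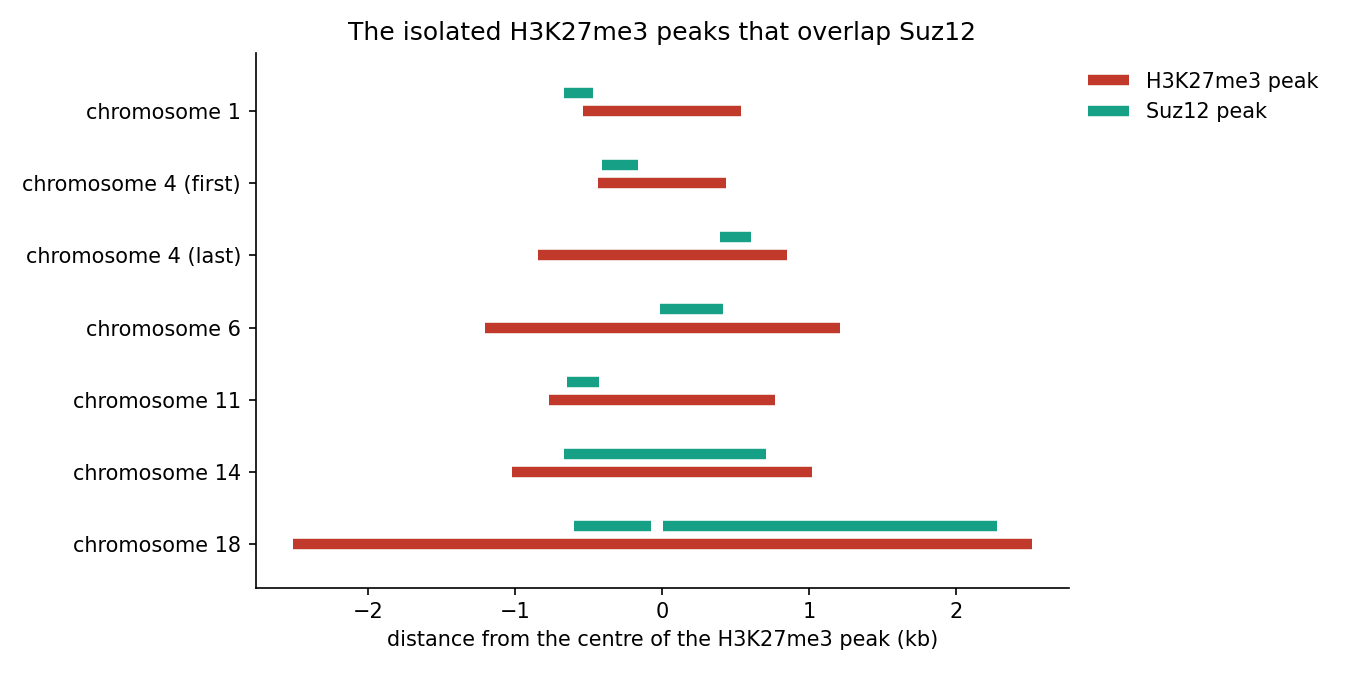
The 7 isolated H3K27me3 peaks that overlap Suz12 (red) and the Suz12 peaks on them (green), drawn to scale as distance in kb from the centre of each H3K27me3 peak. Suz12 spans most of the marked stretch on chromosomes 14 and 18 and a small part elsewhere, and on chromosome 1 it extends past the edge.

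Suz12 was either on an isolated peak or more than 5000 bp from it. The same 7 peaks were found when a Suz12 peak within 1000 bp or within 5000 bp sufficed, while the share among all autosomal H3K27me3 peaks went to 7.79% and 16.2%. The closest Suz12 peak to any of the 3421 isolated peaks without one was 6043 bp away. Within 20 kb the number was 94 (2.74%), beside 25.1% of all autosomal peaks, and within 100 kb it was 467 (13.6%), beside 35.8%. Peaks of 2-peak domains had similar shares, 2.90% within 20 kb and 13.5% within 100 kb. All 147 Suz12 peaks that lay within 20 kb of an isolated peak without touching it overlapped a member of a multi-peak domain, as did 96.6% of all autosomal Suz12 peaks. The median distance from an isolated peak to the nearest Suz12 peak was 836 kb, against 648 kb for outermost peaks and 277 kb for all multi-peak members. By rule isolated peaks have no H3K27me3 neighbour within 5000 bp, so a Suz12 peak wholly inside another H3K27me3 peak cannot be that close. A Suz12 peak that extends past the edge of a neighbour could be.

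Many isolated peaks nevertheless stood in the surroundings of domains. The distance from edge to edge to the nearest multi-peak domain had a median of 47.3 kb, quartiles of 14.8 and 177 kb and a range from 5008 bp to 6.79 Mb. It was 5 to 10 kb for 581 isolated peaks (16.9%), 10 to 20 kb for 496 (14.5%) and 20 to 50 kb for 674 (19.7%). At the other end, 859 (25.1%) lay at 100 to 500 kb, 204 at 500 to 1000 kb and 155 (4.52%) over 1000 kb away. The nearest domain of at least 5 peaks was farther, at a median of 203 kb, and the nearest domain with Suz12 at 844 kb.

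Peaks farther from a domain had slightly higher values. Isolated peaks at 5 to 10 kb from a domain had a median value of 9.58 and a median width of 273 bp, those at 500 to 1000 kb had 10.39 and 289 bp, and those over 1000 kb away had 10.37 and 296 bp. The middle ranges overlapped widely, with quartiles of 8.75 and 11.2 in the nearest class and 9.19 and 13.3 at 500 to 1000 kb. Across the 3428 peaks, Spearman's rho of the distance to the nearest multi-peak domain was 0.10 with value and 0.08 with width. None of the 2210 isolated peaks within 100 kb of a domain carried Suz12, so all 7 with Suz12 came from the 1218 beyond that distance. The closest of the 7 to a domain, on chromosome 11, lay 103 kb away, just beyond that limit. The split of the 7 was noticed in the distance classes and was not tested.

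**Figure D4:**
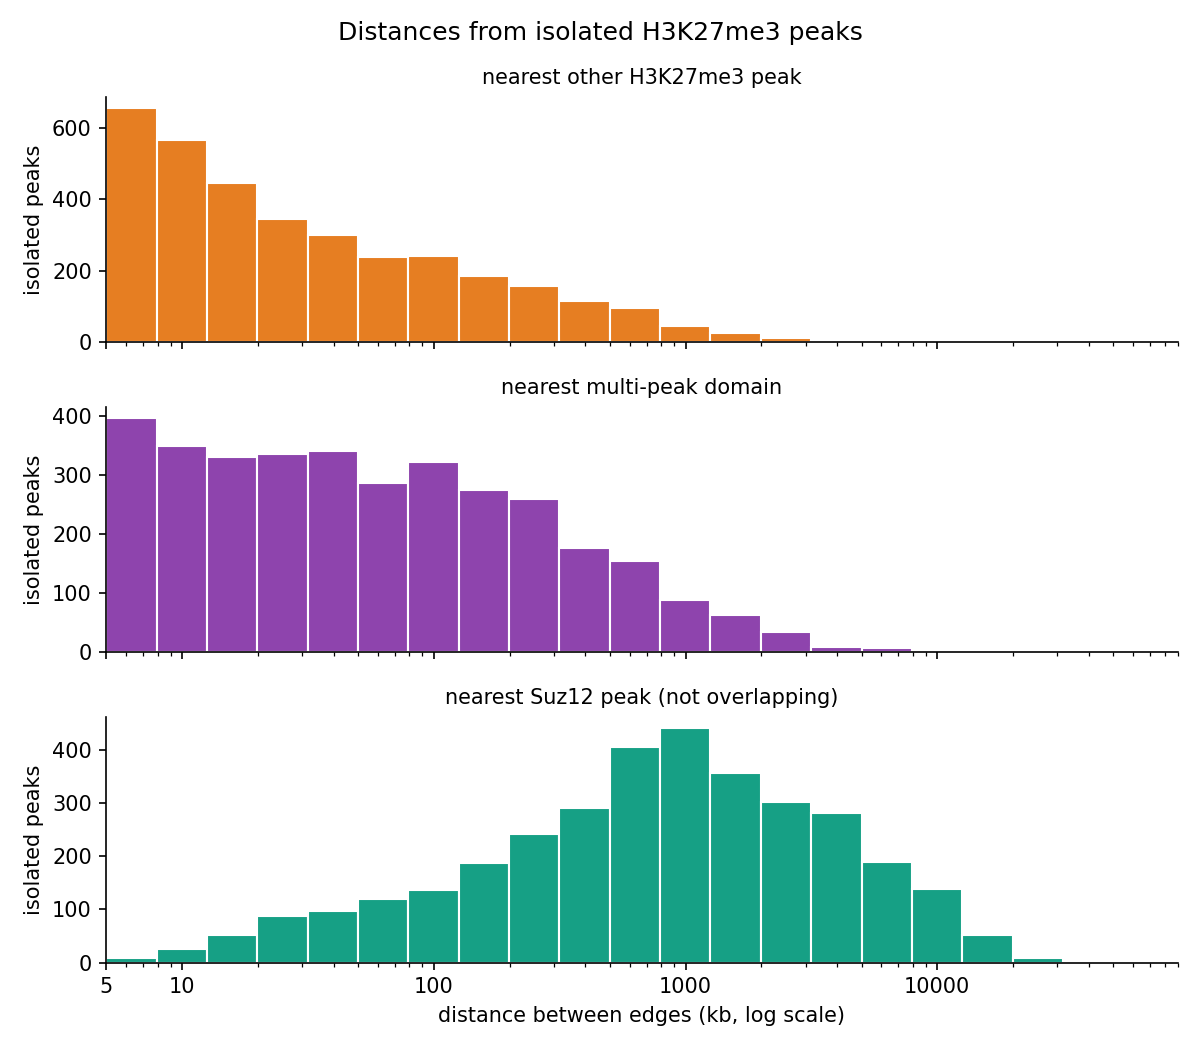
Numbers of isolated H3K27me3 peaks by distance, on a log axis in kb, to the nearest other H3K27me3 peak (top, median 21.1 kb), the nearest multi-peak domain (middle, median 47.3 kb) and the nearest Suz12 peak that does not overlap them (bottom). The axis starts at 5 kb, where the rule begins. Isolated peaks are most numerous close to that limit in the top and middle panels and far from it in the bottom panel.

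The limit of 5000 bp cut through a continuous range of gaps. The peaks just inside it, at chr2:158387134-158387512 (value 8.19), chr3:83649314-83649546 (value 9.55) and chr12:113648707-113648906 (value 8.73), had nearest neighbours at 5008, 5008 and 5010 bp. Just outside it were chr6:83559696-83559915 (value 9.08), chr14:56451233-56451685 (value 11.8) and chr11:118921781-118921980 (value 8.10), at 4992, 4990 and 4986 bp. All of these values were under 12, on both sides of the limit. Most peaks were that low: 79.6% of all isolated and 65.9% of all outermost peaks had values of at most 12.

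The most remote isolated peaks lay megabases from the next H3K27me3 peak. The greatest gap surrounded chr1:114313241-114313521, a 281 bp peak with a value of 8.11 and no other H3K27me3 peak within 5.70 Mb. The next, chr1:148345362-148345561, was 200 bp wide with a value of 10.5 and a gap of 4.49 Mb. The third was the chromosome 4 peak at 28741997 with Suz12. Then came chr1:50983083-50985163, at 3.26 Mb, which was wider (2081 bp) and had a value of 16.9, and chr18:89938658-89939152, at 3.06 Mb, with 495 bp and a value of 13.3. A remote position thus occurred with peaks near the minimum value and with stronger ones alike.

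Isolated peaks and multi-peak domains were interspersed. The next unit on both sides was an isolated peak for 727 isolated peaks (21.2%) and on 1 side for 1678 (48.9%), and the shares for the 4196 multi-peak domains were close, at 20.6% and 47.2%. The longest uninterrupted series held 12 isolated peaks over 2325 kb of chromosome 11 (51105063-53429848). Series of 10 spanned 8108 kb of chromosome 7 (89319870-97428054) and 546 kb of chromosome 18 (76240329-76786441), so such series differed widely in length. In windows of 1 Mb, 1204 of 2482 autosomal windows held an isolated peak, and 253 held isolated peaks without any multi-peak member. These 253 windows held 10.6% of the isolated peaks. The most in 1 window was 16, reached on chromosome 4 (134000001-135000000) among 95 peaks in all and on chromosome 15 (101000001-102000000) among 106.

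Chromosomes differed in their density of isolated peaks. Over the autosomes it was 1.39 per Mb (95% exact Poisson interval 1.34 to 1.43). Chromosome 11 was highest with 279 peaks, 2.29 per Mb (2.03 to 2.57), followed by chromosome 19 with 127 peaks, 2.07 per Mb (1.73 to 2.46), and these intervals overlapped. Chromosome 16 was lowest with 76 peaks, 0.773 per Mb (0.609 to 0.968), and chromosomes 10, 3, 14 and 13 followed at 0.931, 0.959, 0.966 and 0.989 per Mb, with intervals that overlapped that of chromosome 16. The densest and the sparsest autosome differed 2.96-fold in isolated peaks and 4.64-fold in all H3K27me3 peaks.

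As a share of the chromosome's own peaks the order was different. Chromosome 16, sparsest per Mb, had the highest isolated share with 18.1% (14.5 to 22.1), and chromosomes 18 and 14 followed with 17.4% and 16.7%. The lowest shares were 9.92% (8.41 to 11.6) on chromosome 15 and 11.05% (9.24 to 13.1) on chromosome 13. Chromosome 11, densest per Mb, had 11.6% (10.3 to 12.9). The median distance to a multi-peak domain ranged from 24.2 kb on chromosome 19 to 203 kb on chromosome 16. The chromosomes' median values lay between 9.55 and 10.4 and their median widths between 250 and 320 bp. These ranges were about as wide as the differences between isolated and outermost peaks over all autosomes, 0.78 in median value and 61 bp in median width.

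**Figure D5:**
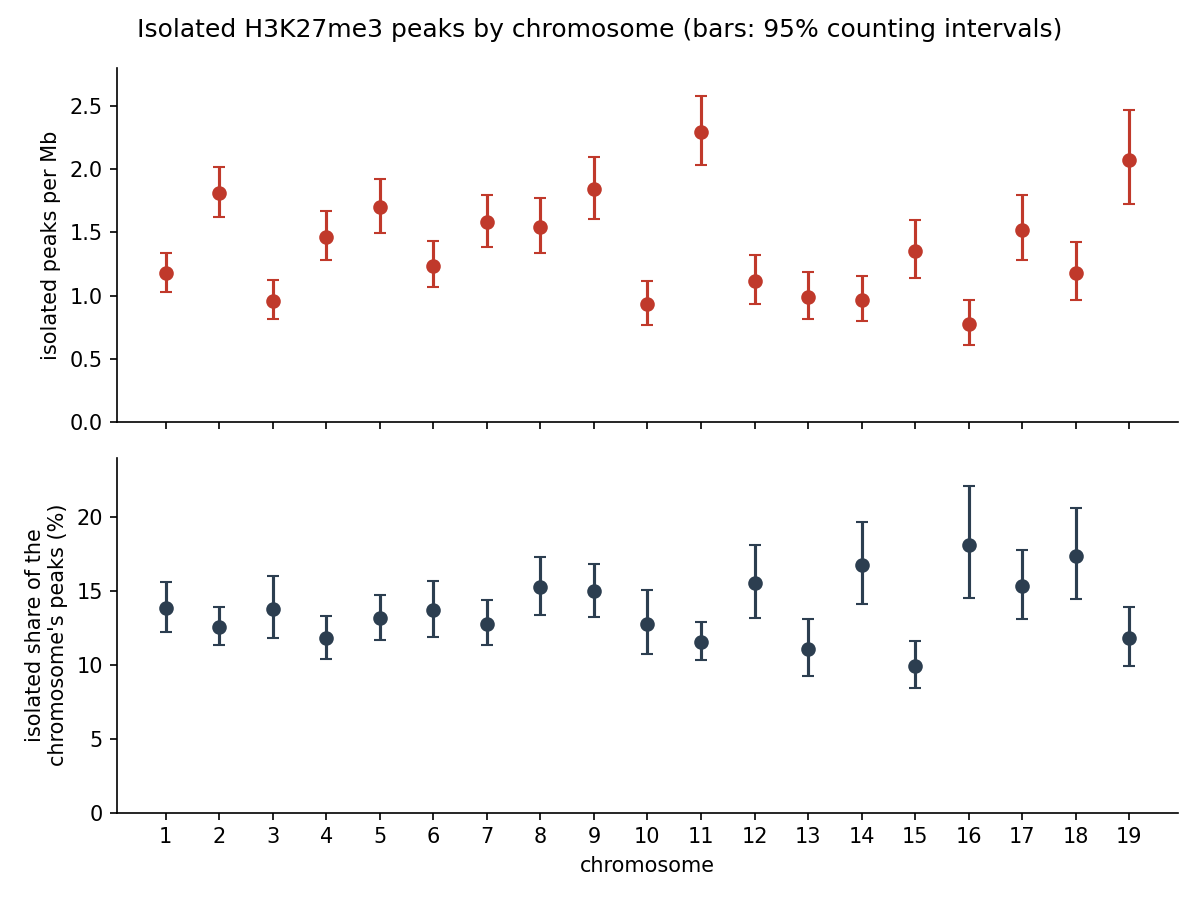
Isolated H3K27me3 peaks per Mb of mm9 sequence (top, bars are 95% exact Poisson intervals) and as a percent of all H3K27me3 peaks of the chromosome (bottom, bars are 95% exact binomial intervals) for chromosomes 1 to 19. Chromosome 11 is highest in the top panel at 2.29 per Mb and chromosome 16 is highest in the bottom panel at 18.1%.

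Isolation holds for the deposited list, which is part of a longer one. Peak names carry running numbers in genome order, and 25955 peaks were left of 33967 numbers. A missing number beside an isolated peak stands for a peak of the longer list somewhere in that flank, at a position that is not known. Both neighbouring numbers were present for 1076 isolated peaks (31.4%, 95% exact interval 29.8 to 33.0), against 61.0% of all autosomal H3K27me3 peaks, 44.5% of outermost and 78.1% of inner peaks. For these 1076 the nearest numbered peak is more than 5000 bp away, while 2342 others had at least 1 missing number beside them. Values and widths of the isolated peaks hardly depended on this, with a median value of 9.65 and width of 273 bp with both numbers present and 9.80 and 283 bp for the rest. Of the 7 isolated peaks with Suz12, the one on chromosome 11 had both neighbouring numbers present.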

How the data were processed

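Chromatin immunoprecipitation with sequencing maps the DNA that an antibody brings down with its target. Per the labels' protocols, crypt cells were fixed with formaldehyde, the chromatin was sonicated, and 1 library was made for each antibody. Bowtie, MACS2 and the build mm9 are named, per the submitters' processing notes, without roles or settings. The authors deposited 1 list of peaks for each antibody, with 1 score per peak of at least 8, called the peak value here. What the score measures, whether the input served as control, and the depth of the libraries are not given in the sources used here.

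Gaps and distances were counted in bp between peak edges. A peak with no neighbour on 1 side of its chromosome was taken as free on that side. An overlap needed 1 bp. Shares have exact (Clopper-Pearson) 95% intervals, counts per Mb exact Poisson ones, and both cover counting error only. Lengths of mm9 chromosomes came from GenomeInfoDb 1.38.1. Python 3.11.15, numpy 2.4.6, pandas 2.3.3, scipy 1.17.1 and matplotlib 3.10.9 were used, and the functions were tested on simulated data.

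The rule for isolated peaks, the classes and the lists of named regions were set with earlier results of these data known. Named regions are the 10 isolated peaks of highest value, the 5 widest, the 5 most remote, each that overlaps Suz12, the 3 on each side of the gap limit, and the chromosomes with extreme density. Comparisons with gene starts, gene lists and sequence were planned and not run, because the tables at hand follow GRCm38.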

Additional observations from a re-analysis of the deposited data

How the results depend on the processing

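No paired analysis was possible because each antibody has 1 library, and for the same reason no replicate could be left out. Of 55 alternatives, 26 kept their value within the limits set, 28 moved it and 1 reversed it. The limits were 1.5 times for a count and the 95% interval for a median or a share. For a difference of medians they joined opposite ends of both groups' 95% intervals, which is wider than a 95% interval. For the fold between chromosomes, the 95% interval did not allow for the pair being picked as densest and sparsest. Gaps of 2000 and 20000 bp gave 5329 and 1759 isolated peaks, and keeping only H3K27me3 peaks above the median value gave 2215. That upper 50% of the list had 27 isolated peaks with Suz12 (1.22%). By construction this setting can make a peak isolated by leaving out weaker neighbours, and it also keeps only the stronger peaks. How far either goes with the higher share was not tested. The number of isolated peaks with Suz12 was 2 with the upper 50% of Suz12 peaks. It was 1 of 1076 among isolated peaks with both neighbouring numbers present, an alternative chosen after seeing the data. With the other settings it was 6 to 9. The difference of median values, isolated minus multi-peak, was -1.99 and -1.34 at 2000 and 20000 bp, -0.78 beside outermost peaks, and -0.19, -1.16, -1.07 and -2.39 in the width classes from 200, 300, 500 and 1000 bp. The difference of median widths was -143 and -101 bp at those gaps and -61 bp beside outermost peaks. The median width was 288 bp at 20000 bp and 273 bp with both numbers present. The median distance to a multi-peak domain was 25876, 78284 and 120908 bp at gaps of 2000, 10000 and 20000 bp, 103680 bp for the upper 50% and 203224 bp to domains of at least 5 peaks. The fold between the densest and sparsest autosome was 2.03 at 20000 bp, where chromosome 3 was the sparsest. As a share of all peaks of the chromosome, the order of chromosomes 11 and 16 reversed (11 over 16 was 0.639), and the highest share, on chromosome 16, was 1.83 times the lowest, on chromosome 15. Both neighbouring numbers were present for 33.3% and 28.9% at 2000 and 20000 bp, and for 29.6% of the upper 50% of isolated peaks. The cause was not tested beyond what each setting changes by construction. Comparisons with gene starts and sequence were not run. The minimum value of 8 and the unknown depth limit what can be said of weaker neighbours.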

Other observations

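A few exact peak values recurred among isolated peaks. The value 8.75 was held by 309 of them (9.01%), 9.55 by 283 (8.26%), 10.37 by 188 (5.48%) and 8.11 by 153 (4.46%). Together these 4 values covered 27.2% of isolated peaks and 11.9% of multi-peak members, and isolated peaks took 363 distinct values in all. The 4 values were picked for being the most frequent among isolated peaks, so the 2 shares are a description.

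Numbers missing from the running series were not spread over the flanks of isolated peaks in proportion to length. Of 1064 flanks of 5 to 10 kb, 35.3% (95% exact interval 32.5 to 38.3) had at least 1 missing number, and of 501 flanks over 1000 kb 51.3% (46.8 to 55.8) did. Per Mb of flank this was 62.2 missing numbers in the shortest class and 0.344 in the longest. Flanks shared by a pair of isolated peaks count for each of them.

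The X chromosome is outside the rule. By the same gap, 29 of its 58 H3K27me3 peaks stood alone, against 13.2% on the autosomes. Among the autosomes, chromosome 16 had the fewest peaks, 420, and also the highest isolated share, 18.1%. Whether the share on the X chromosome goes with its small number of peaks was not tested.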
